A study of Mus musculus with 9 samples.

Results

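The atrophy genes described here are 10 genes of the muscle ubiquitin system and of its FOXO regulators. They are the ligase genes Fbxo32, Trim63, Fbxo30, Fbxo31, Fbxo40, Nedd4 and Traf2 and the transcription factor genes Foxo1, Foxo3 and Foxo4. They were chosen by gene symbol, all 10 were found among the 55536 genes of the deposited tables, and all 10 passed the filter on low counts, which kept 14384 genes. Muscle RNA of male ICR mice, an outbred stock, was sequenced in 9 libraries. The young vehicle group (libraries 2, 3 and 4) was 2 months old, and the aged vehicle group (libraries 1, 3 and 4) was 18 months old. The aged GW8510 group (libraries 1, 3 and 4) was 18 months old and received 2 mg/kg of GW8510, a benzenesulfonamide, by daily intraperitoneal injection over 14 days. The labels name no muscle and do not say whether each library is a separate animal, so p-values measure the spread between these samples, which may be technical. No young group received GW8510.

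In a muscle fibre, proteins marked for the proteasome are tagged with ubiquitin by E3 ligases, which choose the substrate. F-box proteins are the substrate-binding subunits of SCF ligases, RING proteins such as MuRF1 recruit the ubiquitin-carrying enzyme themselves, and HECT ligases pass ubiquitin on through their own catalytic cysteine. FOXO factors enter the nucleus when insulin and growth factor signalling through AKT is low. In wasting muscle they are known to raise Fbxo32 and Trim63 together with autophagy genes, and glucocorticoids are known to act on Trim63 as well.

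RefSeq start-site windows (GRCm38.p6), each with 250 bases before and 50 after an annotated start, were at hand for 8 of the 10 genes, in 10 windows, with none for Fbxo32 and Foxo4. They were searched on both strands for the FOXO core GTAAACA and for the glucocorticoid response hexamer AGAACA, motifs that share no overlap in the matches found. GTAAACA was in 3.65% of 32851 mouse windows and AGAACA in 19.0%. Among the windows of the atrophy genes, GTAAACA was found only in that of Trim63, 194 bases before the start, and AGAACA in windows of Trim63, Fbxo40 and Nedd4. The stretches before the start of these 3 windows are shown because they hold every match, in capitals, and the Trim63 stretch belongs to a gene whose level was uneven across the libraries. In the Trim63 stretch both motifs lie on the reverse strand and abut, so the capitals read as the hexamer followed directly by the FOXO core.
Trim63, chr4:134314870-134315119, plus strand: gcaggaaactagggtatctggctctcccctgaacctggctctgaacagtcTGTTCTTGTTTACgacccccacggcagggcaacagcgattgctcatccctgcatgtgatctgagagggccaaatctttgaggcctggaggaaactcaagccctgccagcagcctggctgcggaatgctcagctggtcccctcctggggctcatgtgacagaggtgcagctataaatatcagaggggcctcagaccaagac
Fbxo40, chr16:36979137-36979386, minus strand: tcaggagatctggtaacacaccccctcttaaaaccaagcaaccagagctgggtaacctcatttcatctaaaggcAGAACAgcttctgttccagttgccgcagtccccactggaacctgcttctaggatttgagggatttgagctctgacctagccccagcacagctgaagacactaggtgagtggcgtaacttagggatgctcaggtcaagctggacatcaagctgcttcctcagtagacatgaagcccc
Nedd4, chr9:72693048-72693297, plus strand: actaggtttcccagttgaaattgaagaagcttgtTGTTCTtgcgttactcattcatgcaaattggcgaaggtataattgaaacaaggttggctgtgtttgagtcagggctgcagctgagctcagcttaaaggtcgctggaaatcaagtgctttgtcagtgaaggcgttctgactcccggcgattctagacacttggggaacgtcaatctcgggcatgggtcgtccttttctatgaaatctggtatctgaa
The Fbxo40 and Nedd4 stretches belong to starts inside the genes, and the windows at the outer starts of both genes held neither motif. A match describes letters in a window and was not tested as a site.

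Library totals were 21718965 to 27437970 expected counts, the deposited estimates of reads per gene. All 14 markers of skeletal muscle fibres were detected in every library, with a summed level of 127600 to 204500 CPM, counts set to a common library total with TMM factors. Aged vehicle library 4 stood apart: 2518 of 14384 genes differed over 2-fold from the mean of its group's other libraries, against 714 to 1457 genes in the other 8 libraries. Its fibroblast markers summed to 76.0 CPM, against 381 CPM in aged vehicle library 1 and 520 CPM in library 3, and all 8 of them had their lowest value there. Also the lowest were its marker sums for fibres (127600 CPM), tendon, endothelium, smooth muscle and pericytes, Schwann cells and adipocytes. The single markers did not all follow. Those with their lowest value there were 6 of 14 for fibres, 3 of 6 for tendon and 4 of 8 for endothelium. They were 6 of 7 for smooth muscle and pericytes, 4 of 6 for Schwann cells and 1 of 6 for adipocytes. For fibres, 2 markers had their highest value there. Fabp4 alone made up 134.7 of the 139.2 CPM of the adipocyte sum in that library. The smooth muscle and pericyte sum was 143.7 CPM there and 337.0 to 482.8 CPM elsewhere. Its macrophage and erythroid sums were not the lowest. Its neutrophil markers (17.2 CPM, against 0.0423 to 5.18 CPM elsewhere) and T and B lymphocyte markers (15.2 CPM, against 0.590 to 3.63 CPM) were the highest. Satellite cell markers summed to 73.6 CPM there and to 18.9 to 28.3 CPM elsewhere, of which the cadherin gene Cdh15 alone made up 64.9 CPM in that library. The part of these markers in the results below was not tested, and in bulk muscle fewer cells of a type and less RNA per cell cannot be told apart. Both comparisons with aged vehicle share its 3 libraries.

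None of the 10 atrophy genes passed the threshold with age, with GW8510 in aged mice, or between aged GW8510 and young vehicle. With 3 libraries per group this does not show that their levels were unchanged. The threshold was an adjusted p under 0.05 in edgeR's quasi-likelihood test over all genes, and it was passed by 1.22% of genes with age, by 0% for GW8510 over aged vehicle, and by 0.751% for aged GW8510 over young vehicle. At an unadjusted p under 0.05 there was 1 of the 10 with age (Fbxo32), 2 for GW8510 over aged vehicle (Fbxo32 and Trim63) and none for aged GW8510 over young vehicle. The same count over all genes was 2763 (19.2%), 647 (4.5%) and 2399 (16.7%). None passed with DESeq2 or limma-voom either. The values were uneven in 1 library: aged vehicle library 4 held the highest CPM of all 9 libraries for 6 of the 10, Fbxo32, Trim63, Fbxo31, Foxo1, Nedd4 and Fbxo30, against 23.2% of all genes tested.

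**Figure D1:**
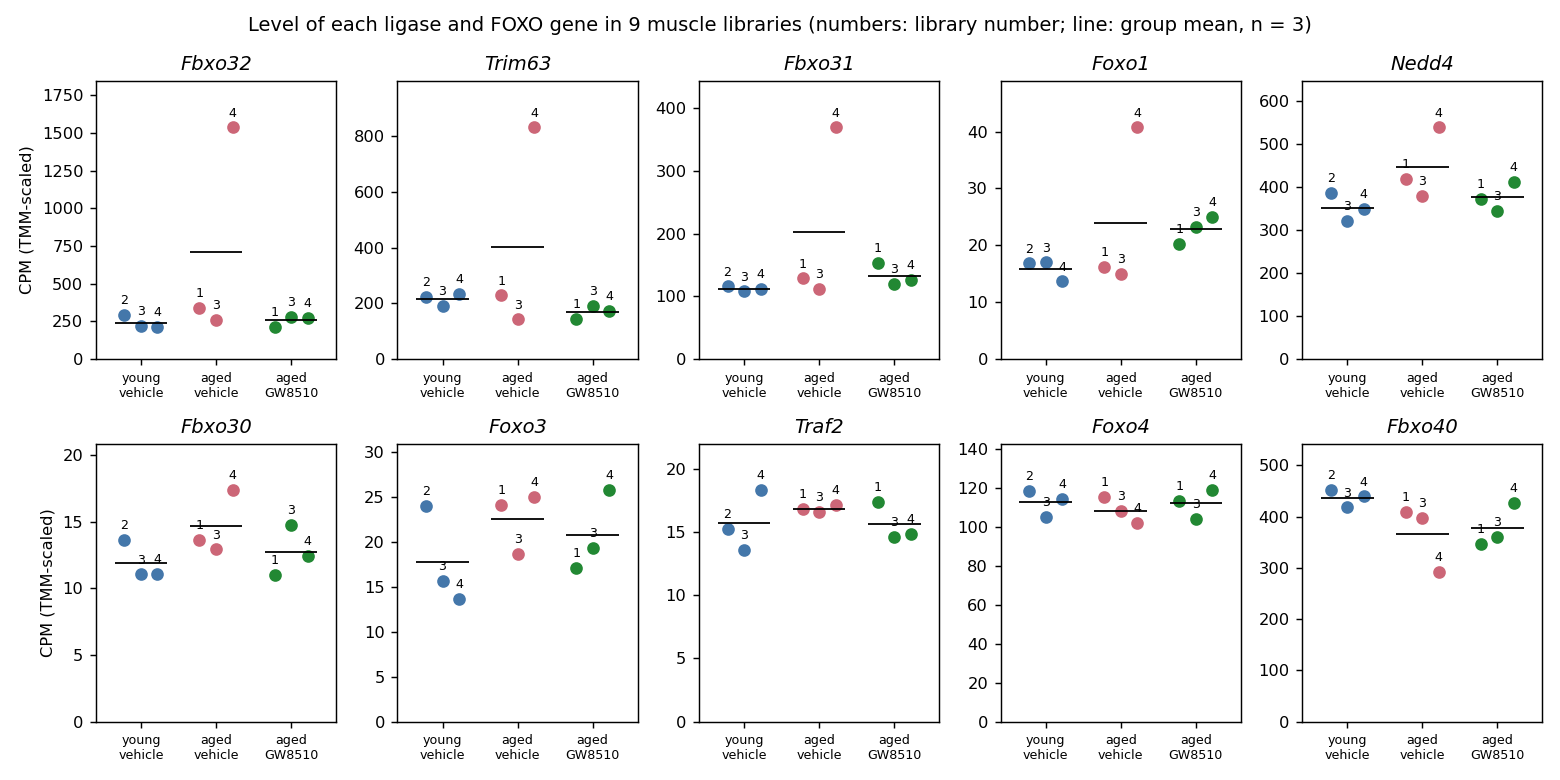
Level of each gene in CPM (vertical axes, linear from 0, one panel per gene) in the 3 libraries of each group, with library numbers beside the points and the group mean as a line. Aged vehicle library 4 lies far above the other 8 libraries for Fbxo32 (1536 CPM), Trim63 (832.6 CPM), Fbxo31 (369.3 CPM) and Foxo1 (40.8 CPM), and below them for Fbxo40 (292.0 CPM).

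Fbxo32 encodes the F-box protein MAFbx, the best known marker of muscle atrophy (chromosome 15, 58175879 to 58214932, minus strand, protein coding). It stood at 292.5, 218.0 and 213.4 CPM in the young vehicle libraries, at 339.9, 260.1 and 1536 CPM in aged vehicle libraries 1, 3 and 4, and at 213.6, 280.9 and 275.3 CPM with GW8510. Aged vehicle library 4 was 5.12 times the mean of its group's other libraries, while the other 8 libraries lay within 1.59-fold of each other and the groups overlapped. The group means were 241.3 ± 44.4, 712.1 ± 715 and 256.6 ± 37.3 CPM (SD, n = 3 each). The log2 fold change with age was 1.56 (standard error 0.57, edgeR adjusted p = 0.189), and for GW8510 over aged vehicle it was -1.47 (standard error 0.56, edgeR adjusted p = 0.934). Without aged vehicle library 4 these values were 0.32 and -0.24. GW8510 over young vehicle gave 0.09 (standard error 0.55, or 0.18 in a fit of only the 6 libraries compared).

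Trim63 encodes MuRF1, a RING ligase that binds titin and attacks myosin and other thick filament proteins (chromosome 4, 134315120 to 134329629, plus strand, protein coding). It stood at 224.4, 191.0 and 232.7 CPM in young vehicle, at 228.9, 142.6 and 832.6 CPM in aged vehicle libraries 1, 3 and 4, and at 144.7, 190.7 and 172.5 CPM with GW8510. Again aged vehicle library 4 alone was high, at 4.48 times the mean of its group's other libraries, and aged vehicle library 3 was the lowest of all. The log2 fold change with age was 0.89 (standard error 0.52, edgeR adjusted p = 0.368) and it was -0.21 without aged vehicle library 4, so its direction rested on that library. In GW8510 over aged vehicle it was -1.25 (standard error 0.52, edgeR adjusted p = 0.934), and -0.15 without that library. All 3 GW8510 libraries lay below all 3 young vehicle libraries, by -0.35 on the log2 scale (standard error 0.52, edgeR adjusted p = 0.768). A fit of only the 6 libraries compared gave a standard error of 0.15 (unadjusted p = 0.0487 and adjusted p = 0.240 in edgeR). The nearest values were 190.7 and 191.0 CPM, and 25.7% of all genes did not overlap in this comparison.

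Fbxo31 encodes an F-box protein known for the degradation of cyclin D (chromosome 8, 121549440 to 121578806, minus strand, protein coding). It stood at 115.8, 107.7 and 112.2 CPM in young vehicle, at 128.5, 111.9 and 369.3 CPM in aged vehicle libraries 1, 3 and 4, and at 153.3, 119.4 and 126.3 CPM with GW8510. Aged vehicle library 4 was 3.07 times the mean of its group's other libraries. In CPM the GW8510 libraries were all above the young ones, by less than the test could resolve (log2 fold change 0.25, standard error 0.39, edgeR adjusted p = 0.779). A fit of only the 6 libraries compared gave a standard error of 0.14 (edgeR adjusted p = 0.349). Of all genes, 25.7% did not overlap in this comparison. The log2 fold change with age was 0.86 (standard error 0.39, edgeR adjusted p = 0.262), and 0.10 without aged vehicle library 4. For GW8510 over aged vehicle it went from -0.61 to 0.13 without that library, a change of direction.

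The sources used here do not say whether counting used strand, and genes on the opposite strand overlap Fbxo32 and Fbxo31. The antisense gene Gm15943, which overlaps Fbxo32, had 13.3 CPM in aged vehicle library 4 and 0.592 to 3.72 CPM elsewhere, so it was high in the same library as Fbxo32 and far below it in level. Gm20388, which overlaps Fbxo31, had 1733 CPM in aged vehicle library 4 but also 1729 CPM in aged vehicle library 1, where Fbxo31 was at 128.5 CPM, and 61.4 to 140.6 CPM in the other 7. Reads of the overlapping pairs cannot be told apart here.

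The other F-box genes were less uneven. Fbxo40, a muscle F-box gene whose product is known to target the insulin receptor substrate IRS1 (chromosome 16, 36963460 to 36990467, minus strand, protein coding), ran the opposite way. It stood at 451.9, 418.1 and 439.6 CPM in young vehicle, at 409.3, 397.1 and 292.0 CPM in aged vehicle libraries 1, 3 and 4, and at 347.4, 360.8 and 426.4 CPM with GW8510. Aged vehicle library 4 was the lowest of the 9, and every aged vehicle library lay below every young one, the only such case among the 10 genes with age, where 26.2% of all genes did not overlap. With age the log2 fold change of Fbxo40 was -0.25 (standard error 0.17, edgeR adjusted p = 0.435), and -0.11 without aged vehicle library 4. Fbxo30, an F-box gene known from denervated muscle (chromosome 10, 11281330 to 11298052, plus strand, protein coding), had 13.6, 11.0 and 11.1 CPM in young vehicle. It had 13.6, 12.9 and 17.4 CPM in aged vehicle libraries 1, 3 and 4, and 11.0, 14.7 and 12.4 CPM with GW8510. The 3 groups overlapped, and the log2 fold change with age was 0.30 (standard error 0.18), and 0.16 without aged vehicle library 4.

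Of the remaining ligases, Nedd4 encodes a HECT ligase with many membrane protein substrates (chromosome 9, 72662346 to 72749852, plus strand, protein coding). It stood at 385.3, 321.8 and 348.9 CPM in young vehicle, at 418.5, 379.0 and 538.2 CPM in aged vehicle libraries 1, 3 and 4, and at 371.7, 343.9 and 411.5 CPM with GW8510. Its highest library was again aged vehicle library 4, at 1.35 times the mean of its group's other libraries, and the groups overlapped. With age the log2 fold change of Nedd4 was 0.34 (standard error 0.17, edgeR adjusted p = 0.312), and 0.18 without that library. Traf2, a RING adaptor of TNF family receptors (chromosome 2, 25517982 to 25546940, minus strand, protein coding), had 13.6 to 18.3 CPM over all 9 libraries. It was the steadiest within aged vehicle, at 16.8, 16.6 and 17.1 CPM in libraries 1, 3 and 4, so the unevenness of that group did not extend to it.

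Among the 3 FOXO genes, Foxo1 alone had its highest value in aged vehicle library 4 (chromosome 3, 52268336 to 52353221, plus strand, protein coding). It stood at 16.8, 17.0 and 13.7 CPM in young vehicle, at 16.1, 15.0 and 40.8 CPM in aged vehicle libraries 1, 3 and 4, and at 20.2, 23.3 and 25.1 CPM with GW8510. Aged vehicle library 4 was 2.62 times the mean of its group's other libraries, which lay at the young level. Every GW8510 library was above every young one in CPM, by 0.53 on the log2 scale (standard error 0.34, edgeR adjusted p = 0.468). A fit of only the 6 libraries compared gave a standard error of 0.15 (unadjusted p = 0.0075 and adjusted p = 0.0990 in edgeR). Of all genes, 25.7% did not overlap in this comparison. In the authors' deposited table the same comparison had a log2 ratio of 0.53 and an adjusted p of 0.0665. For GW8510 over aged vehicle the log2 fold change was -0.07 (standard error 0.34), and without aged vehicle library 4 it was 0.54 (standard error 0.17, unadjusted p = 0.0090 and adjusted p = 1 in edgeR). In CPM, Foxo1 in GW8510-treated muscle thus lay above 5 of the 6 vehicle libraries, and neither comparison passed. In the deposited TPM (transcripts per length, set to a common total) it had 2.20, 2.46 and 3.04 with GW8510. Young vehicle had 2.47, 2.11 and 1.68 TPM, so these groups overlapped on that scale.

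Foxo3 encodes the FOXO factor best known for driving muscle autophagy (chromosome 10, 42181841 to 42276755, minus strand, protein coding). It had 24.0, 15.6 and 13.6 CPM in young vehicle, 24.0, 18.6 and 24.9 CPM in aged vehicle, and 17.1, 19.3 and 25.7 CPM with GW8510. The groups overlapped, and its log2 fold change with age was 0.35 (standard error 0.24, edgeR adjusted p = 0.451). It was 0.61 without young vehicle library 2 (edgeR unadjusted p = 0.0259, adjusted p = 0.303) and 0.19 without young vehicle library 4. Foxo4, on chromosome X from 101254528 to 101260873 (plus strand, protein coding), had 101.9 to 118.9 CPM over all 9 libraries, the narrowest relative range of the 10. Its 3 log2 fold changes were -0.06, 0.05 and -0.01, each with a standard error of 0.13.

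Counted over groups rather than libraries, 8 of the 10 log2 fold changes were above 0 with age, with a median of 0.34 against 0.01 for all genes. In GW8510 over aged vehicle 8 of 10 were below 0, with a median of -0.16 against 0.01. Without aged vehicle library 4 the medians were 0.10 with age and -0.09 with GW8510, with 6 of 10 above 0 with age and still 8 of 10 below 0 with GW8510. No atrophy gene had aged GW8510 libraries that all lay on the same side of all aged vehicle libraries, where 7.22% of all genes did. Between aged GW8510 and young vehicle there were 3 in CPM, Foxo1 and Fbxo31 higher and Trim63 lower, against 25.7% of all genes. These cases depended on the scale. In the deposited TPM the groups overlapped for Foxo1 and for Fbxo31 (26.5 to 34.0 with GW8510, 28.0 to 35.7 in young vehicle). Trim63 and Fbxo40 were lower in all GW8510 libraries on that scale, where the share of all genes was not counted. The GW8510 libraries 1, 3 and 4 held the highest TPM for only 4.3%, 5.0% and 5.3% of all genes tested. In CPM these shares were 11.69%, 12.65% and 6.93%. The TPM values of Trim63 and Fbxo40 are therefore not read as a result about these genes.

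**Figure D2:**
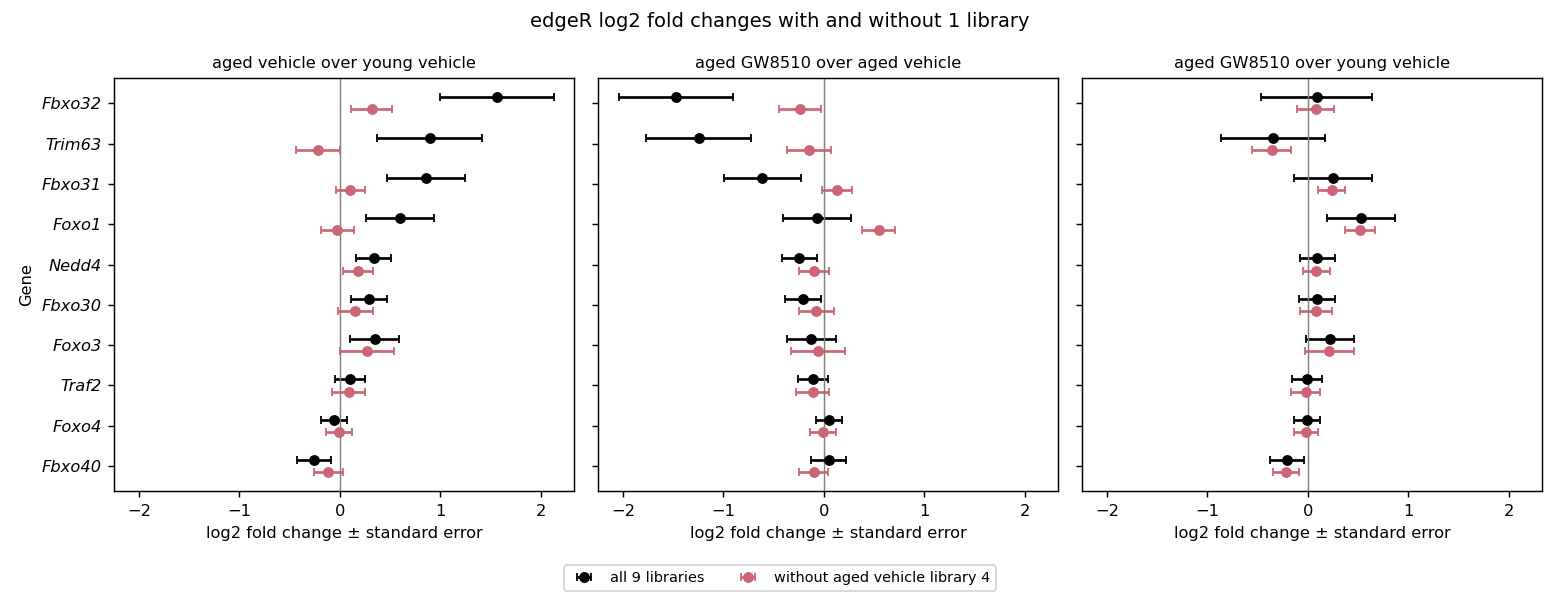
Log2 fold change with standard error (horizontal axes) of each gene in the 3 comparisons, from the fit of all 9 libraries (black) and from the fit without aged vehicle library 4 (red). With age Fbxo32 moves from 1.56 to 0.32 and Trim63 from 0.89 to -0.21, while the comparison of aged GW8510 with young vehicle, which does not contain that library, moves little and has shorter error bars for Fbxo32, Trim63, Fbxo31 and Foxo1.

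Set against all genes, the difference between aged vehicle library 4 and its group was large for 4 of the atrophy genes and ordinary for 6. On the log2 scale it was 2.37 for Fbxo32, 2.20 for Trim63, 1.62 for Fbxo31 and 1.39 for Foxo1, and 98, 117, 298 and 430 of the 14384 genes had a more positive difference. For Nedd4, Fbxo30, Foxo3, Traf2, Foxo4 and Fbxo40 it was 0.43, 0.39, 0.24, 0.04, -0.13 and -0.47. On the deposited TPM scale the same library was the highest for 7 of the 10 genes and for 30.4% of all genes.

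**Figure D3:**
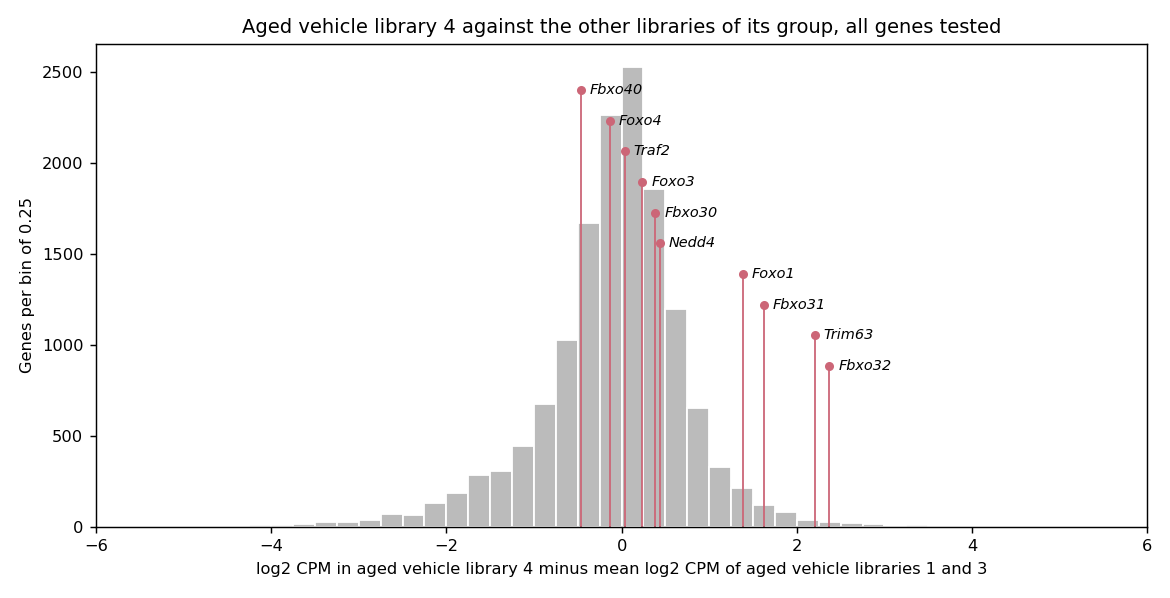
Histogram over 14384 genes of the log2 CPM in aged vehicle library 4 minus the mean of aged vehicle libraries 1 and 3 (horizontal axis), with the 10 atrophy genes marked by red lines whose heights serve only to separate the names. Fbxo32, Trim63, Fbxo31 and Foxo1 lie in the right tail, and the other 6 genes lie between -0.47 and 0.43.

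The order of the genes by level was taken from the deposited TPM values, which allow for gene length. Trim63 had the highest median TPM in every group, at 153.2 (127.7 to 176.5) in young vehicle, 153.1 (87.4 to 609.5) in aged vehicle and 108.0 (84.4 to 112.6) with GW8510. Fbxo40 and Nedd4 followed, at medians of 93.4 and 69.3 TPM in young vehicle, with overlapping ranges in each group. Foxo4, Fbxo32 and Fbxo31 came next in young vehicle, at medians of 41.1, 33.9 and 30.1 TPM, and neighbours in that run overlapped. Traf2 stood alone at a median of 7.52 TPM in young vehicle. The lowest levels were those of Fbxo30, Foxo3 and Foxo1, at medians of 2.49, 2.47 and 2.11 TPM in young vehicle, and their ranges overlapped in all groups. Of the FOXO genes Foxo4 therefore had by far the highest transcript level in this muscle. Fbxo32 had a higher median than Foxo4 in both aged groups, at 53.3 TPM (37.3 to 261.4) in aged vehicle and 37.1 TPM (29.0 to 41.8) with GW8510, with ranges that overlapped.

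Genes with the most similar profile were ranked by the root mean square difference of centred log2 CPM over the 9 libraries, among 6923 genes with a mean of at least 10 CPM. For Fbxo32 they were Hgs (0.23), Clip1, Mknk2, Trim63 (0.30), Flnc, Nfkb2, Myh14 and Ubxn4. Trim63 was thus in place 4 for Fbxo32, and Fbxo32 was in place 13 for Trim63. For Trim63 they were Myo18b (0.23), Tacc2, Clip1, Ubxn4, Cdh15, Rrp12, Zfp318 and Slc15a4. The shared feature of these profiles was the value in aged vehicle library 4: Hgs, an endosomal sorting gene, had 100.5 CPM there and 14.9 to 19.8 CPM in the other 8. For Foxo1 the genes were Por (0.17), Dnttip2, Clcc1, Rhou, Stat3, Nop14, Mtmr14 and Abi1. Por, the electron donor of the cytochrome P450 enzymes, had 20.8, 20.8 and 18.3 CPM in young vehicle, 24.6, 23.9 and 62.1 CPM in aged vehicle, and 24.7, 40.4 and 35.3 CPM with GW8510.

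Of 28 FOXO target genes, all tested, 1 rose and 1 fell with age and 26 did not pass, where 1.22% of all genes passed. An unadjusted p under 0.05 in edgeR was found for 10 of the 28, or 6 without aged vehicle library 4, and for 19.2% of all genes with all libraries. The median log2 fold change was 0.22 against 0.01 for all genes, or 0.10 without aged vehicle library 4. Pik3ip1, a brake on PI3 kinase, rose from 28.6, 27.3 and 31.0 CPM in young vehicle to 75.7, 48.7 and 68.0 CPM in aged vehicle. This was a log2 fold change of 1.15 (standard error 0.18, edgeR adjusted p = 0.0288), and 1.11 without aged vehicle library 4, where it passed as well (edgeR adjusted p = 0.0373). Irs2, an insulin receptor substrate, fell from 63.9, 57.2 and 47.3 CPM to 21.5, 21.1 and 24.2 CPM. This was a log2 fold change of -1.33 (standard error 0.25, edgeR adjusted p = 0.0402), and the groups were far apart, though the call was lost without aged vehicle library 4 (edgeR adjusted p = 0.0619). Pik3ip1 was lost in 5 of the 9 fits that left out 1 library, and Irs2 in 7.

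Aged vehicle library 4 again held the highest value for 15 of the 28 targets, against 23.2% of all genes tested. Eif4ebp1, an inhibitor of translation initiation, had 347.9 CPM there and 22.2 to 57.9 CPM in the other 8 libraries. Gadd45a, a stress gene of denervated muscle, had 228.5 CPM there and 11.3 to 42.4 CPM elsewhere. The autophagy genes Map1lc3b (600.0 CPM, against 172.0 to 320.6 CPM) and Bnip3 (624.2 CPM, against 193.9 to 310.8 CPM) and the proteasome gene Psmd11 (296.7 CPM, against 86.6 to 122.5 CPM) had the same shape. These 5 genes were picked for their values and none passed in any comparison. Txnip, which encodes a thioredoxin-binding protein that restrains glucose uptake, went the other way, at 732.4, 621.0 and 680.5 CPM in young vehicle, 425.8, 359.0 and 216.5 CPM in aged vehicle, and 651.9, 593.8 and 658.6 CPM with GW8510. Aged vehicle did not overlap either group for Txnip. Of all genes, 26.2% did not overlap with age and 7.22% for GW8510 over aged vehicle. Its log2 fold change for GW8510 over aged vehicle was 0.93 (standard error 0.23, unadjusted p = 0.0025 and adjusted p = 0.934 in edgeR), and 0.68 without aged vehicle library 4. None of the 28 passed for GW8510 over aged vehicle, and 2 had an unadjusted p under 0.05 (Txnip and Psmd11), where 4.5% of all genes did. The median of the 28 was -0.09, or 0.06 without aged vehicle library 4. For aged GW8510 over young vehicle none passed, and without aged vehicle library 4 Pik3ip1 (log2 fold change 0.82) and Gabarapl1, an autophagy gene (1.02), passed (edgeR adjusted p = 0.0373 and 0.0249).

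**Figure D4:**
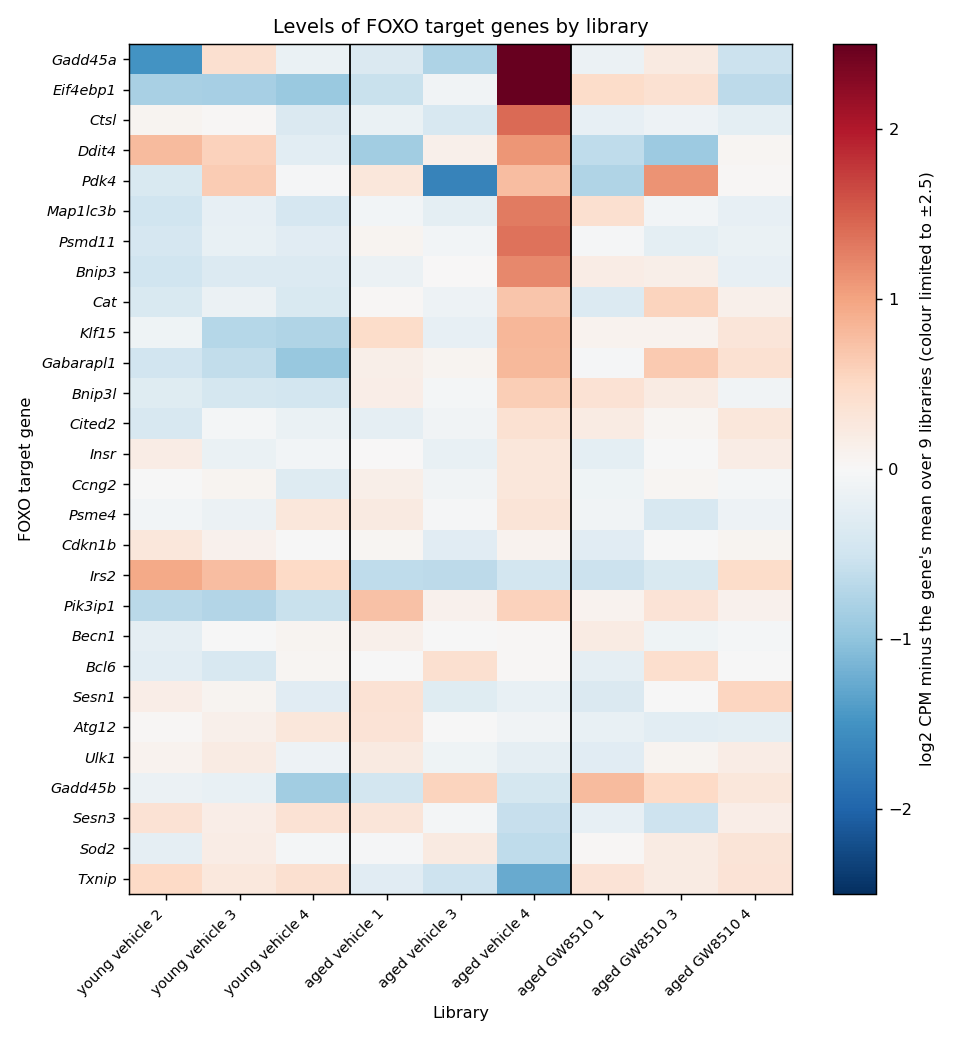
Log2 CPM of 28 FOXO target genes (rows) in the 9 libraries (columns), each centred on its mean over the libraries, with rows ordered by the difference between aged vehicle library 4 and its group and colours limited to 2.5 either way. The column of aged vehicle library 4 is red in the upper rows, most of all for Gadd45a and Eif4ebp1, while Pik3ip1 is higher and Irs2 lower in all 3 aged vehicle libraries than in the young ones.

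Upstream of FOXO, 27 genes of AKT signalling and its partners were tested, of which Irs2 and Igf1 fell with age, none rose and 25 did not pass. Of all genes, 1.22% passed with age. An unadjusted p under 0.05 in edgeR was found for 5 of the 27 and for 19.2% of all genes. Irs2 is in both lists. Igf1, the insulin-like growth factor of growing muscle, went from 19.8, 18.6 and 30.0 CPM in young vehicle to 6.80, 8.67 and 2.82 CPM in aged vehicle, and stood at 6.54, 4.69 and 7.79 CPM with GW8510. Its log2 fold change with age was -1.90 (standard error 0.38, edgeR adjusted p = 0.0462), and -1.56 without aged vehicle library 4, where it passed as well (edgeR adjusted p = 0.0394), but the call was lost in 7 of the 9 fits that left out 1 library. Fibroblasts also make Igf1, and their 8 markers summed to 1200 to 2627 CPM in the young, 76.0 to 520 CPM in the aged vehicle and 240 to 573 CPM in the GW8510 libraries. The part of these cells in the fall was not tested. Irs1, the other insulin receptor substrate, had 71.1, 43.0 and 91.2 CPM in young vehicle and 27.5, 27.1 and 20.9 CPM in aged vehicle (log2 fold change -1.44, edgeR adjusted p = 0.0859). None of the 27 passed for GW8510 over aged vehicle, where Ppargc1a, a coactivator that restrains FOXO, had the smallest p (log2 fold change 1.16, unadjusted p = 0.0155 and adjusted p = 0.934 in edgeR). Its largest value by far, 77.8 CPM, was that of aged GW8510 library 4, with 13.9 to 27.7 CPM elsewhere. For aged GW8510 over young vehicle none passed with all libraries. Without aged vehicle library 4 Igf1 (log2 fold change -1.86), Irs1 (-1.85) and Smad3, a transducer of myostatin signals (-0.85), passed (edgeR adjusted p = 0.00663, 0.0277 and 0.0179).

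The wider ubiquitin system gave no calls in any comparison with edgeR on all libraries and the filter on low counts, and without the filter each of its 2 lists had 1 call for aged GW8510 over young vehicle. Of 24 other ligases of muscle, 2 had an unadjusted p under 0.05 with age, where 19.2% of all genes did. The median log2 fold change of the 24 was 0.08, or -0.07 without aged vehicle library 4, with 13 and 11 of them above 0. Asb2, a muscle ligase subunit that targets filamins, had 974.5, 943.5 and 918.1 CPM in young vehicle. It had 704.6, 496.2 and 706.3 CPM in aged vehicle and 561.7, 400.0 and 531.0 CPM with GW8510, so both aged groups lay below the young one. Its log2 fold change was -0.57 with age (edgeR adjusted p = 0.169) and -0.93 for aged GW8510 over young vehicle (edgeR adjusted p = 0.0642, and 0.0268 without aged vehicle library 4). Stub1, the chaperone-linked ligase CHIP, was next with age (log2 fold change 0.39, edgeR adjusted p = 0.211), followed by Trim32 (-0.43, edgeR adjusted p = 0.296, and -0.22 without aged vehicle library 4). Trim54 and Trim55, the close relatives of Trim63, had 335.7 and 39.6 CPM in aged vehicle library 4 and did not share its peak there. Of the 24, 8 had their highest value in that library and 5 their lowest, where 23.2% of all genes had their highest. Trim72 was among the 8, at 352.0 CPM there and 127.9 to 182.4 CPM elsewhere.

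Among 15 genes for ubiquitin, the SCF core and conjugating enzymes, 13 had a log2 fold change above 0 with age, with a median of 0.23. An unadjusted p under 0.05 in edgeR was found for 4 of the 15 and for 19.2% of all genes. Without aged vehicle library 4 the values of this list were 10, 0.15 and 1. Ubb, a gene for ubiquitin itself, was among them. It had 689.4, 772.6 and 725.9 CPM in young vehicle and 961.0, 874.9 and 1537 CPM in aged vehicle, again with the highest value in library 4 (log2 fold change 0.62, edgeR adjusted p = 0.213, and 0.33 without that library). Ube2b, a conjugating enzyme of muscle, and Cul1, the scaffold of SCF ligases, had log2 fold changes of 0.46 and 0.41 with age (edgeR adjusted p = 0.196 and 0.236), and of 0.38 and 0.21 without aged vehicle library 4.

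Of 18 receptors and signalling partners of TRAF2, none passed in any comparison and the median log2 fold change with age was -0.02, or -0.06 without aged vehicle library 4. Traf5 (log2 fold change -0.83, edgeR adjusted p = 0.154), Relb (0.64, edgeR adjusted p = 0.235) and Nfkb2 (0.90, edgeR adjusted p = 0.288) had the smallest p with age. Relb and Nfkb2, the NF-κB subunits of the noncanonical pathway, had 20.4 and 33.4 CPM in aged vehicle library 4, and no more than 10.4 and 12.2 CPM in the other 8, and their log2 fold changes with age were 0.22 and 0.06 without it. The TWEAK receptor gene Tnfrsf12a had 63.0 CPM there and 19.9 to 41.2 CPM elsewhere. Relb and Birc3 were the 2 with an unadjusted p under 0.05 for GW8510 over aged vehicle, at log2 fold changes of -0.62 and -0.53. Of all genes, 4.5% had such a p in this comparison.

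Foxo6, the remaining FOXO gene of the mouse, is not among the 10 and was looked at after its values were seen. It had 7.18, 8.04 and 7.88 CPM in young vehicle, 4.07, 2.25 and 0.823 CPM in aged vehicle libraries 1, 3 and 4, and 3.68, 4.56 and 4.05 CPM with GW8510. Both aged groups lay below the young one, and aged vehicle library 4 was here the lowest. Of all genes, 26.2% did not overlap with age and 25.7% between aged GW8510 and young vehicle. For aged GW8510 over young vehicle the log2 fold change was -0.91 (standard error 0.42, edgeR adjusted p = 0.314). With only the 6 libraries compared its adjusted p was 0.0417 in edgeR, and it was 0.00631 in the authors' deposited table. It passed in that comparison under no other alternative. The log2 fold change with age was -1.68 (standard error 0.43, edgeR adjusted p = 0.0908), and it passed with DESeq2 (adjusted p = 0.00488) and in the authors' deposited table (log2 ratio -1.67, adjusted p = 0.0153). It also passed without a filter and with quality weights. It did not pass with RLE factors, limma-voom, 6 libraries (edgeR adjusted p = 0.163) or the replicate block (edgeR adjusted p = 0.292), nor in any of the 9 fits without 1 library (edgeR adjusted p = 0.0640 to 0.236), where the log2 fold change was -1.28 without aged vehicle library 4.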

How the data were processed

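Muscle RNA was measured in 9 libraries. The authors deposited expected counts per gene and library without normalization, per the file headers, with TPM values beside them. Their 3 tables, 1 per pair of groups, also hold the authors' log2 ratio with its p-value, raw and adjusted. The submitters' processing notes name GRCm38, CASAVA, HISAT2, StringTie, RSEM, DESeq2 and edgeR without versions or roles. Strand use, gene annotation and the options of counting are not given in the sources used here. Coordinates are from GENCODE M21, which held 55450 of the 55536 gene IDs.

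Counts were rounded, filtered with filterByExpr, scaled by TMM and tested with edgeR 4.0.16 (R 4.3.3) in 1 fit of 9 libraries with 3 group means, two-sided, with Benjamini-Hochberg adjustment over 14384 genes and a threshold of 0.05. Standard errors divide the size of the log2 fold change by √F. A floor of 3 counts is 0.103 to 0.136 CPM and covers counting error only. The fit was tested on simulated data in which no library deviated from its group, so that test does not cover the unevenness of aged vehicle library 4. The alternatives were RLE factors, no filter, 6 libraries only, DESeq2 1.42.0, limma-voom (limma 3.58.1) without and with quality weights, a replicate block, and each library left out. Named list genes are those past the threshold or, in a list with none, up to 3 with the smallest p; others were chosen after their values were seen. A gene that this rule would name is not reported here. The members and lists were chosen with earlier results of these data known.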

Additional observations from a re-analysis of the deposited data

How the results depend on the processing

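None of the 10 atrophy genes passed under any of the 16 alternatives: of 480 log2 fold changes, 457 kept their direction and 23 reversed. Over the fits without 1 library, Trim63 ranged from -0.21 to 1.30 and Foxo1 from -0.024 to 0.85 with age. For GW8510 over aged vehicle, Fbxo31 ranged from -0.91 to 0.13, Fbxo40 from -0.10 to 0.13, Foxo1 from -0.32 to 0.54 and Foxo4 from -0.0091 to 0.098. For aged GW8510 over young vehicle, Fbxo30 ranged from -0.026 to 0.19, Foxo4 from -0.065 to 0.045 and Traf2 from -0.10 to 0.11. All 6 reversals with age or for GW8510 over aged vehicle that came with aged vehicle library 4 left out are in these ranges. For GW8510 over aged vehicle, Foxo1 also reversed with limma-voom (0.095), quality weights (0.44) and the replicate block (0.033), and Fbxo40 (-0.079) and Foxo4 (-0.022) with quality weights. Foxo4 reversed with age under quality weights (0.0087) and for aged GW8510 over young vehicle under the replicate block (0.0027). The cause was not tested.

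Over all genes, the 175 calls with age became 699 without a filter, 50 with 6 libraries, 946 with DESeq2, 702 with quality weights, 5 with the replicate block and 19 to 148 without 1 library. The 108 calls for aged GW8510 over young vehicle became 553, 469, 820, 781, 8 and 25 to 594 in the same order. For GW8510 over aged vehicle 5 genes passed without a filter, 7 with DESeq2 and 0 to 2 without 1 library. Libraries with the same number did not deviate together (r of -0.21 to 0.14 across genes), so the block is an alternative only.

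List counts were recomputed after the data were seen. With age, the 2 FOXO targets became 6 without a filter, with DESeq2 or with quality weights, 1 with 6 libraries, 0 with the replicate block and 0 to 2 without 1 library. The 2 AKT genes became 4 with DESeq2, 1 with 6 libraries, 0 with the block and 0 to 1 without 1 library. The SCF list had 1 with DESeq2 or quality weights. For aged GW8510 over young vehicle, FOXO targets went from 0 to 2 without a filter or with 6 libraries, 3 with DESeq2, 4 with quality weights and 0 to 2 without 1 library, and AKT genes to 4, 3, 5, 4 and 0 to 3 in that order. The SCF and other ligase lists each had 1 under those 4 alternatives and 0 to 1 without 1 library.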
